A study of Homo sapiens with 6 samples.

Results

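The genes described here encode the machinery that degrades RNA in human cells, as listed by gene symbol. The exosome group (13 genes) holds the subunits and nucleases of the RNA exosome, and DIS3L2, a related nuclease that acts without it. The deadenylation group (14 genes) holds the deadenylases and their complexes. The decapping group (7 genes) holds the decapping factors with the exonuclease XRN1. The factors of nonsense-mediated decay (NMD) form a group of 9 genes. The 2 nuclear partners, MTREX and XRN2, were kept outside the 4 groups. Of these 45 genes, 44 were found among the 43172 rows of each count file by matching transcript identifiers to gene symbols, and UPF3B was not analysed here. The libraries were made from untreated K562 cells, an established human line from a chronic myelogenous leukemia. There were 4 total RNA-seq libraries (replicates 1 to 4), which measure steady-state RNA after removal of ribosomal RNA, and 2 PRO-seq libraries (replicates 1 and 2), which map engaged RNA polymerases through the nascent RNA they carry. All came from cells grown in the same flask, so that p-values measure the spread between libraries, which may be technical.

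Cytoplasmic mRNA decay usually starts with shortening of the poly(A) tail, by the PAN2-PAN3 complex and the CCR4-NOT complex. The cap is then removed by DCP2 with its activators, and XRN1 degrades the body of the RNA from the 5′ end, while the exosome, a ring of catalytically inert subunits with a cap of RNA-binding subunits and attached nucleases, degrades it from the 3′ end. NMD removes mRNAs with premature stop codons through the helicase UPF1, its partners UPF2 and UPF3, the kinase SMG1, and the effectors SMG5 and SMG6. In the nucleus, the helicase MTREX feeds RNA to the exosome, and XRN2 degrades RNA downstream of the cleavage site at transcription termination.

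Counts on transcription units (TUs) ranged from 5732780 to 9002746 per RNA-seq library and were 6993816 and 7245632 in the PRO-seq libraries. Between 26342 and 41855 of these counts fell on the RNA decay genes in an RNA-seq library, and 38711 and 40774 in the PRO-seq libraries. The SD of the log2 TPM difference between pairs of RNA-seq libraries over 8503 mRNAs was lowest for replicates 2 and 4 (0.165) and for replicates 1 and 3 (0.173), and reached 0.206 for the other pairs. All 10 markers of erythroleukemia cells examined, among them GATA1 and the fetal globin gene HBG2, lay above 1 TPM in RNA-seq. A further list held markers of other cell types and CDKN2A, which is deleted in K562. Of its 10 genes found, 3 (LYZ, EPCAM and COL1A2) also lay above 1 TPM, at 334, 120 and 1.36 TPM.

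Relative half-life was estimated as the ratio of RNA-seq TPM to PRO-seq TPM (a level per length that is scaled to the same total in each library), from counts summed over the libraries of each assay. It is given on the log2 scale with the median mRNA at 0, so that 1 stands for a ratio that is 2-fold that of the median mRNA. The uncentred log2 ratio of the median mRNA was −0.64, and TPM of the assays have no common zero, so that a TPM in RNA-seq is not compared with a TPM in PRO-seq directly. Errors are standard errors (SE) from the spread of log2 TPM between the libraries of each assay (n = 4 for RNA-seq and 2 for PRO-seq). With so few libraries the SE is itself uncertain. It can fall below the error of counting alone, as for XRN1, so the smallest SEs overstate the precision. A gene needed a PRO-seq level over 10 TPM and an RNA-seq level over 1 TPM, and 42 of the 45 genes passed. The exosome subunit EXOSC3 and the NMD factor SMG8 had 0 PRO-seq counts in both libraries and therefore no estimate. Another counted TU on the same strand covers 100% and 99.7% of their PRO-seq counting windows, and 95.8% of the 638 mRNAs whose window is fully covered in this way had no PRO-seq count, against 9.82% of the 10901 mRNAs whose window no other TU covers.

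The RNA decay genes did not lie on one side of the median mRNA. By the quasi-likelihood test of edgeR, with p-values adjusted by Benjamini and Hochberg over all 9929 TUs tested, 23 of the 42 genes (54.8%) had a longer half-life than the median mRNA at an adjusted p under 0.05 and 18 (42.9%) a shorter one. The background was close to this: 40.4% of all TUs tested and 45.4% of the 8733 mRNAs were called longer, and 50% of all TUs and 44.9% of mRNAs shorter. The remaining gene, DIS3L2, which degrades uridylated RNAs without the exosome, stood at 0.10 ± 0.09 (SE, adjusted p = 0.279 by edgeR), and was called longer when TUs of at least 10 summed counts per assay were kept (0.22, adjusted p = 0.0207 by edgeR) and with at least 1 (0.76, adjusted p = 5.64e-17). A difference of over 2-fold from the median mRNA was seen in 17 genes (40.5%), and in 52.9% of all mRNAs. The estimates spanned −2.56 for SMG9 to 2.85 for MTREX, and their SE ranged from 0.013 to 0.18 with a median of 0.056.

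**Figure D1:**
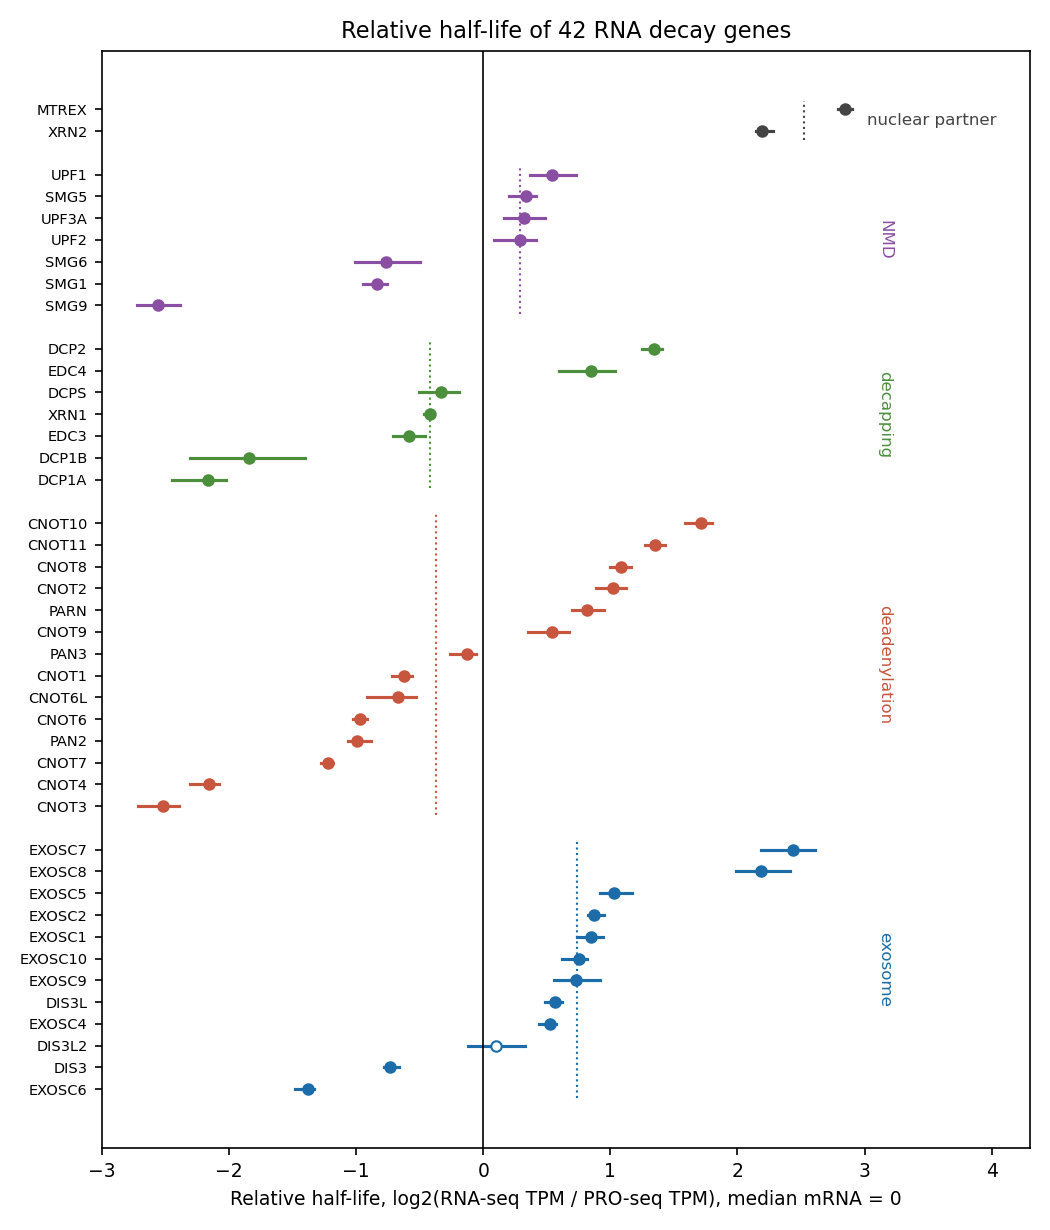
Relative half-life of the 42 RNA decay genes with an estimate, on the log2 scale (x axis, median mRNA = 0), by group. Points are estimates from summed libraries, bars the range over the 8 ways of taking 1 library from each assay, dotted lines group medians, and the open point (DIS3L2) is the gene not called by edgeR. Most exosome genes lie to the right of 0 and most decapping genes to the left.

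The exosome group had the longest half-lives of the 4 groups. Of its 12 genes with an estimate, 9 were called longer than the median mRNA (75%, against 45.4% of all mRNAs) and 2 shorter, and the group median was 0.74. The 6 ring subunits had a median of 0.88, and the cap subunits EXOSC1 and EXOSC2 stood at 0.85 and 0.87. EXOSC7, a ring subunit, was at 113, 109, 99.2 and 109 TPM in RNA-seq replicates 1 to 4 and at 33.4 and 29.0 TPM in the PRO-seq libraries. Its log2 half-life was 2.43 ± 0.11 (SE, edgeR adjusted p = 6.58e-23), and ranged from 2.19 to 2.61 over the 8 ways of taking 1 library from each assay. The counted EXOSC7 model has 3 exons and no annotated coding sequence, and a TU of CLEC3B on the same strand covers 57.0% of its PRO-seq window and 70.7% of its exons. Without these shared bases in its lengths the value was 3.03.

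EXOSC8, another ring subunit, had RNA-seq levels of 134, 141, 138 and 151 TPM and PRO-seq levels of 52.4 and 44.1 TPM. No other TU shares its window on the same strand, and its log2 half-life was 2.18 ± 0.13 (SE, edgeR adjusted p = 2.96e-19), a ratio 4.54-fold that of the median mRNA. EXOSC6 was the ring subunit at the other end, with 43.5, 47.8, 48.0 and 48.4 TPM in RNA-seq and 189 and 190 TPM in PRO-seq. It is the only gene with 1 exon in the list, had the highest PRO-seq level after EXOSC4, and its log2 half-life was −1.38 ± 0.04 (SE, edgeR adjusted p = 3.25e-15). EXOSC6 and EXOSC8 encode neighbors in the same ring, yet the range over library combinations ran from −1.48 to −1.33 for EXOSC6 and from 1.99 to 2.41 for EXOSC8.

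The nucleases attached to the exosome differed among themselves. DIS3, the main catalytic subunit, was at 30.1, 31.1, 30.4 and 32.4 TPM in RNA-seq and 78.5 and 81.5 TPM in PRO-seq. Its log2 half-life of −0.73 ± 0.04 (SE) was shorter than the median (edgeR adjusted p = 3.41e-13), a call lost with at least 1 summed count (−0.07, adjusted p = 0.302). EXOSC10, the nuclear nuclease, was at 0.75 and DIS3L, the cytoplasmic relative of DIS3, at 0.56, both called longer. EXOSC4, at 0.52, had the highest levels of all 42 genes, 266 TPM in RNA-seq and 288 TPM in PRO-seq, but its PRO-seq window rests on 72 and 75 counts in the libraries, and its log2 half-life was 1.07 when 500 bp were removed for PRO-seq. The RNA of EXOSC3, which had no PRO-seq count, was at 173, 166, 165 and 183 TPM, close to that of EXOSC2, although 32.5% of its exon bases are shared with another TU. The counted EXOSC3 model has 462 exon bases and no annotated coding sequence, against 1928 in the coding model of EXOSC2.

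In the main estimates, the nuclear partners had the longest and the third longest half-lives in the list. EXOSC7 rose above the MTREX value given here when its shared bases were left out. XRN2 and EXOSC8 (2.18 ± 0.13, SE) differed by less than that error. MTREX, the helicase that opens RNA for the nuclear exosome (chr5:54603817-54721407 on GRCh37, plus strand), was at 247, 260, 247 and 264 TPM in RNA-seq and 54.9 and 55.1 TPM in PRO-seq. The libraries of each assay differed little, and the log2 half-life was 2.85 ± 0.02 (SE, edgeR adjusted p = 7.36e-32), above that of 95.4% of mRNAs. XRN2 stood at 2.19 ± 0.04 (SE, edgeR adjusted p = 4.18e-27).

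The deadenylation group was split. Of its 14 genes, 6 were called longer than the median mRNA and 8 shorter (57.1%, against 44.9% of all mRNAs), with a group median of −0.37. The non-catalytic subunits of CCR4-NOT lay at both ends. CNOT10, a subunit of the module at the N-terminal end of the scaffold CNOT1, was at 141, 153, 154 and 157 TPM in RNA-seq and 68.8 and 74.0 TPM in PRO-seq, which gave 1.71 ± 0.06 (SE, edgeR adjusted p = 9.07e-25). Its partner in that module, CNOT11, was next. CNOT11 stood at 75.7, 74.6, 77.0 and 75.2 TPM in RNA-seq and at 47.3 and 44.6 TPM in PRO-seq, with a log2 half-life of 1.35 ± 0.04 (SE, edgeR adjusted p = 1.20e-16). CNOT3, a structural subunit that forms a module with CNOT2, had the lowest RNA-seq levels of the complex, 7.94, 6.66, 7.74 and 7.70 TPM, against 64.6 and 68.5 TPM in PRO-seq. Over the library combinations its log2 half-life ranged from −2.72 to −2.39, and the value of −2.52 ± 0.07 (SE) was shorter than the median (edgeR adjusted p = 5.39e-20). Its module partner CNOT2 stood at 1.02. CNOT4, a ubiquitin ligase linked to the complex, was at 9.45, 9.78, 9.41 and 8.58 TPM in RNA-seq and 64.9 and 64.6 TPM in PRO-seq, and had a log2 half-life of −2.15 ± 0.04 (SE, edgeR adjusted p = 1.44e-23).

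Of the 4 deadenylases of CCR4-NOT, CNOT8 was called longer (1.08) and CNOT7, CNOT6 and CNOT6L shorter (−1.22, −0.97 and −0.67), of which CNOT6L lost its call with at least 1 summed count (−0.016, edgeR adjusted p = 0.843). The scaffold CNOT1 stood at −0.62 and CNOT9, which docks RNA-binding proteins, at 0.54. Outside the complex, the deadenylase PARN was longer, at 0.82, and PAN2 shorter, at −0.996. PAN3, which recruits PAN2 to poly(A)-binding protein, was at −0.13 ± 0.04 (SE, edgeR adjusted p = 0.0417), and this call was lost when any library other than RNA-seq replicate 4 was left out (adjusted p from 0.0553 to 0.136 in those 5 fits) and with DESeq2 (adjusted p = 0.130).

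Most decapping genes lay below the median mRNA, but only DCP1A and DCP1B lay far below it. Of 7 genes, 5 were called shorter than the median mRNA (71.4%, against 44.9% of all mRNAs) and 2 longer, and the group median was −0.42. DCP2, the decapping enzyme, was at 98.6, 108, 104 and 108 TPM in RNA-seq and 62.2 and 65.5 TPM in PRO-seq. The log2 half-life was 1.35 ± 0.05 (SE, edgeR adjusted p = 7.15e-22), and ranged from 1.25 to 1.41 over the library combinations. EDC4, the scaffold of the decapping complex, was at 47.6, 41.9, 48.5 and 38.8 TPM in RNA-seq and 36.3 and 39.9 TPM in PRO-seq, and had a log2 half-life of 0.85 ± 0.10 (SE, edgeR adjusted p = 1.26e-07). A TU on the same strand shares 9.94% of the PRO-seq window of EDC4 and 26.2% of its exons, and without these bases the value was 1.18.

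DCP1A and DCP1B, which activate DCP2, had the shortest half-lives of the group. DCP1A was at 6.68, 8.92, 8.97 and 8.21 TPM in RNA-seq and 55.9 and 57.5 TPM in PRO-seq, with a log2 half-life of −2.16 ± 0.10 (SE, edgeR adjusted p = 6.81e-22). DCP1B was at 3.29, 2.52, 2.26 and 1.97 TPM in RNA-seq, which rest on 26, 21, 12 and 12 counts, and at 13.5 and 15.1 TPM in PRO-seq. This was the lowest RNA level in the list, and its log2 half-life of −1.84 ± 0.18 (SE, edgeR adjusted p = 2.11e-11) had the largest error. EDC3, an enhancer of decapping, stood at −0.58 and the exonuclease XRN1 at −0.42 ± 0.01 (SE, edgeR adjusted p = 6.12e-10). DCPS, which breaks down the cap left after decay from the 3′ end, was at −0.33 ± 0.11 (SE, edgeR adjusted p = 0.00494). This call was lost without PRO-seq replicate 2 (adjusted p = 0.109) and with at least 10 summed counts (−0.21, adjusted p = 0.0653). The half-lives of EDC3, XRN1 and DCPS were above those of 35.7%, 39.7% and 41.7% of mRNAs. All changed sign with at least 1 summed count.

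In the NMD group the UPF factors lay above the median mRNA and most SMG factors below it. Of 7 genes with an estimate, 4 were called longer (57.1%, against 45.4% of all mRNAs) and 3 shorter, with a group median of 0.29. UPF1, the helicase at the center of the pathway, was at 89.2, 77.2, 86.9 and 77.2 TPM in RNA-seq and at 83.5 and 92.9 TPM in PRO-seq. The log2 half-life was 0.54 ± 0.09 (SE, edgeR adjusted p = 1.95e-09), and ranged from 0.37 to 0.73 over the library combinations. UPF3A and UPF2 stood at 0.32 and 0.29. SMG5, an adaptor that recruits decay enzymes, was at 107, 109, 108 and 101 TPM in RNA-seq and at 125 and 137 TPM in PRO-seq, and had a log2 half-life of 0.34 ± 0.07 (SE, edgeR adjusted p = 1.73e-07).

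SMG9, a subunit of the SMG1 kinase complex, had the shortest half-life in the list. It was at 15.4, 14.3, 13.8 and 13.5 TPM in RNA-seq and 125 and 139 TPM in PRO-seq, and its log2 half-life was −2.56 ± 0.09 (SE, edgeR adjusted p = 1.69e-25), above that of 6.05% of mRNAs. The kinase SMG1 was at 26.6, 26.3, 25.4 and 24.5 TPM in RNA-seq and 69.6 and 73.7 TPM in PRO-seq, which gave −0.84 ± 0.05 (SE, edgeR adjusted p = 1.11e-17). SMG1 has near-identical copies on the same chromosome, so its counts are uncertain in both assays. The endonuclease SMG6 stood at −0.77, a call lost with at least 1 summed count (−0.10, edgeR adjusted p = 0.163). SMG8, which had no PRO-seq count, was at 40.4, 42.7, 39.0 and 43.4 TPM in RNA-seq.

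In all 8 combinations that take 1 library from each assay, the exosome group had the highest median and the NMD group the next. The decapping group was last in 6 combinations and the deadenylation group in 2. Over the combinations, the median ranged from 0.66 to 0.80 for the exosome, from 0.09 to 0.36 for NMD, from −0.48 to −0.32 for deadenylation and from −0.51 to −0.40 for decapping. The exosome median exceeded the decapping median by 1.16 on the log2 scale, a 2.24-fold difference (1.10 to 1.30 over the combinations), and the deadenylation median by 1.11 (0.99 to 1.27). Genes are not replicates of a group, so these differences are given without a test. The position of the median mRNA itself depends on which mRNAs are counted. With every TU of at least 1 summed count per assay it moved by −0.63, and the deadenylation and decapping medians then stood above it, at 0.26 and 0.21. Under the same setting CNOT1, EDC3, XRN1, DCPS and PAN3 changed sign, DIS3, CNOT6L and SMG6 kept theirs without being called, and 27 genes were called longer and 10 shorter.

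The groups also differed in how evenly their genes were transcribed. The SD of log2 PRO-seq TPM over genes was 0.67 for deadenylation, 0.78 for NMD, 0.91 for decapping and 1.25 for the exosome, against 1.24 for all mRNAs past the thresholds. The decapping value was 0.28, the lowest, over the 5 genes left at thresholds of 20 and 2 TPM. RNA-seq levels were spread more widely than PRO-seq levels in each group, with SDs of 1.38, 1.24, 1.78 and 1.35 in the same order, against 2.05 for all mRNAs. The deadenylation genes varied 4.69-fold between the lowest and highest PRO-seq TPM and 20.2-fold in RNA-seq TPM. The exosome genes, by contrast, varied 20.3-fold in PRO-seq TPM and 27.2-fold in RNA-seq TPM, and without DIS3L2 its PRO-seq SD was 1.07 and its RNA-seq SD 1.06, which turned the order of the assays. The SD of log2 half-life was 1.32 for deadenylation, 1.28 for decapping, 1.11 for NMD and 1.05 for the exosome, each below the 1.68 of all mRNAs.

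**Figure D2:**
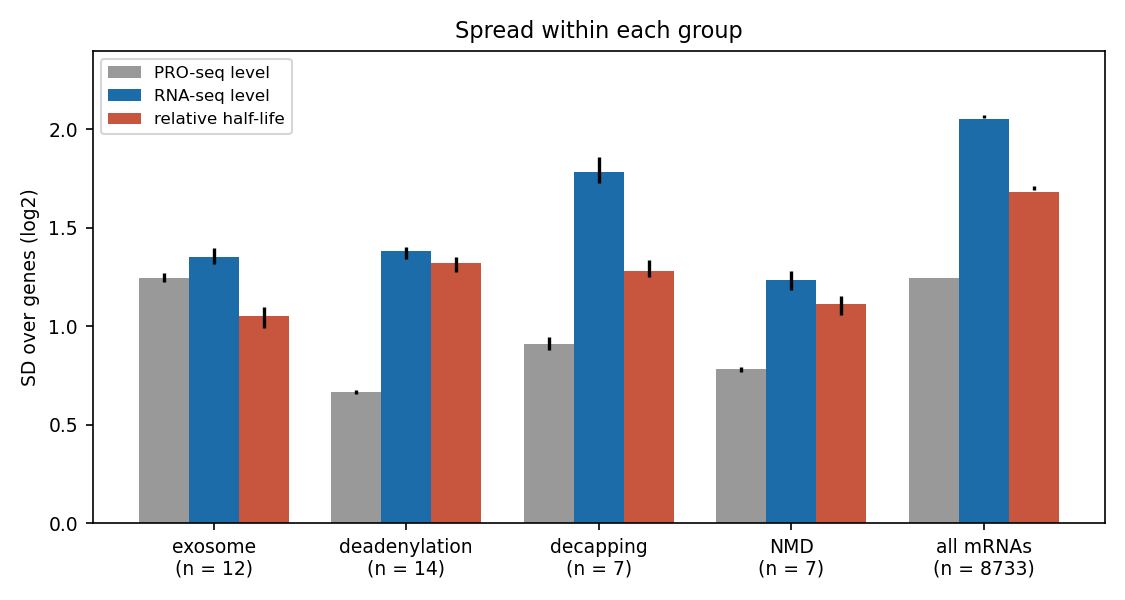
Standard deviation over the genes of each group (y axis, log2 scale) of PRO-seq level, RNA-seq level and relative half-life, beside all mRNAs past the thresholds. Black lines give the range over single libraries (levels) or over the 8 library combinations (half-life); the PRO-seq bar of the deadenylation genes stands at 0.67, and that of the decapping genes, at 0.91, was 0.28 at thresholds of 20 and 2 TPM.

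Across the 42 genes, half-life followed the RNA-seq level more closely than the PRO-seq level. Spearman's rho was 0.82 between RNA-seq TPM and half-life and −0.10 between PRO-seq TPM and half-life, close to the 0.79 and −0.01 over 8733 mRNAs. Half-life is computed from both levels, so these values share their measurements. The RNA-seq and PRO-seq levels of the decay genes were themselves related with a rho of 0.43 (n = 42), against 0.55 over all mRNAs. In PRO-seq 28 of the 42 genes lay above the median mRNA level, and in RNA-seq 25.

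Paralogs within the machinery were compared within each library, where the scaling of the library cancels but the lengths of the counted models do not. The log2 ratio of the TPM of a gene to that of its paralog was computed in each library, and RNA-seq and PRO-seq libraries were compared with an exact two-sided permutation test over all 15 assignments, which cannot give a p below 0.0667. The difference between assays is the difference in half-life. Of 6 pairs listed, 5 could be tested, and UPF3A was left without UPF3B.

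CNOT7 and CNOT8, alternative deadenylases that occupy the same place in CCR4-NOT, exchanged their order between the assays. In PRO-seq, CNOT7 was above CNOT8 by log2 ratios of 1.08 and 1.10, and in RNA-seq below it, at −1.17, −1.24, −1.12 and −1.32. By TPM, CNOT7 was thus 2.13-fold higher in PRO-seq and 2.32-fold lower in RNA-seq, a half-life difference of −2.30 (exact permutation p = 0.0667, adjusted p = 0.111 over 5 pairs). The RNA-seq order rests on the counted models, of 6890 exon bases for CNOT7 and 2708 for CNOT8. Before division by length, CNOT7 had more counts than CNOT8 in each RNA-seq library (1087, 1163, 758 and 823 against 960, 1083, 647 and 810). The assays did not overlap for this pair, nor for XRN1 and XRN2, DIS3 and DIS3L, or CNOT6 and CNOT6L, so this does not set it apart.

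XRN1 and XRN2, the cytoplasmic and nuclear 5′ exonucleases, were transcribed at like levels, with XRN1 at log2 ratios of 0.26 and 0.20 in PRO-seq. In RNA-seq, XRN1 was below XRN2 at −2.38, −2.35, −2.46 and −2.39. The half-life difference was −2.62 (exact permutation p = 0.0667, adjusted p = 0.111), or 6.16-fold, and was the largest of the 5 pairs. DIS3 was transcribed above DIS3L, at 1.57 and 1.67, and in RNA-seq this was reduced to 0.27, 0.32, 0.32 and 0.42, a half-life difference of −1.29 (exact permutation p = 0.0667, adjusted p = 0.111).

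The other pairs differed less. CNOT6 was above CNOT6L by 0.59 and 0.54 in PRO-seq and by 0.12, 0.18, 0.51 and 0.37 in RNA-seq, a difference of −0.27 (exact permutation p = 0.133, adjusted p = 0.167). DCP1A was above DCP1B in every library, at 2.05 and 1.92 in PRO-seq and at 1.02, 1.82, 1.99 and 2.06 in RNA-seq. The assays overlapped, and the difference of −0.26 (exact permutation p = 0.667, adjusted p = 0.667) was −0.03 without RNA-seq replicate 1.

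To show what precedes the start of the genes transcribed most and least in the list, short stretches of their promoters are given. They are the 100 bases before the annotated start, on the strand of the gene, of the pair of genes with the highest and the pair with the lowest PRO-seq TPM among those with a promoter sequence that may be printed. They were taken from RefSeq on GRCh38.p14, and capitals mark matches, on either strand, to CCGGAAG (bound by ETS factors), GGGCGG (the GC box), CCAAT (bound by NF-Y) or TATAAA (bound by the general factor TBP).
EXOSC6, at 189 TPM in PRO-seq (chr16:70251941-70252040, minus strand): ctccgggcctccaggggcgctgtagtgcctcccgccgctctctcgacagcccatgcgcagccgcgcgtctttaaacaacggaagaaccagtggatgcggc
EXOSC2, at 140 TPM in PRO-seq (chr9:130693660-130693759, plus strand): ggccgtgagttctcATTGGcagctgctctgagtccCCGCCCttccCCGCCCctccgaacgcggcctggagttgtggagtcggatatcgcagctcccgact
DIS3L2, at 14.2 TPM in PRO-seq (chr2:231961613-231961712, plus strand): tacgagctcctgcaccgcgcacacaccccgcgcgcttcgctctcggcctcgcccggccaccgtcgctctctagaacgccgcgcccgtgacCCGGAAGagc
DCP1B, at 14.3 TPM in PRO-seq (chr12:2004458-2004557, minus strand): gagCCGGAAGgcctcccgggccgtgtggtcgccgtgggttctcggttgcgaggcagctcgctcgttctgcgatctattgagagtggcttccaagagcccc
EXOSC2 holds GC boxes and a CCAAT match in this stretch, DIS3L2 and DCP1B an ETS match each, and EXOSC6 none of these letters.

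Over the wider window of 250 bases before to 50 after the start, available for 40 of the 45 genes, the decay genes were much like other mRNAs. The GC box was in 32 of 40 (80%), against 72.9% of 7226 mRNAs past the thresholds and 44.6% of all 27305 promoters. The CCAAT match was in 16 (40%), against 38.1% and 35.7%, and the ETS match in 8 (20%), against 22.7% and 10.7%. The TATAAA match was in 1 gene (2.5%), against 4.84% of the mRNAs past the thresholds. A match describes the letters and not a bound site. A protein-coding gene started within 1000 bp upstream on the other strand for 10 of 44 genes (22.7%), against 13.0% of mRNAs, among them PIBF1 beside DIS3, DHX29 beside MTREX and VPS37A beside CNOT7.

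Genes with short half-lives had longer 3′ UTRs. The median 3′ UTR of the counted model was 3883 bases in the 18 genes called shorter than the median mRNA and 904.5 bases in the 22 genes called longer with an annotated 3′ UTR, against 1236 bases over 8173 mRNAs. Spearman's rho between 3′ UTR length and half-life was −0.42 over 41 genes, beside −0.29 over all mRNAs. For the full exon length it was −0.51 (n = 42) beside −0.33, and exon length also divides the RNA-seq count, so that these measures share a term. The part of this in the relation was not tested. DCP2 went against it, with the longest 3′ UTR of the list (8714 bases) and a log2 half-life of 1.35, and so did CNOT3, with 277 bases and −2.52. The 3′ UTR of EXOSC9 (3054 bases) is that of a counted model annotated as an NMD target.

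**Figure D3:**
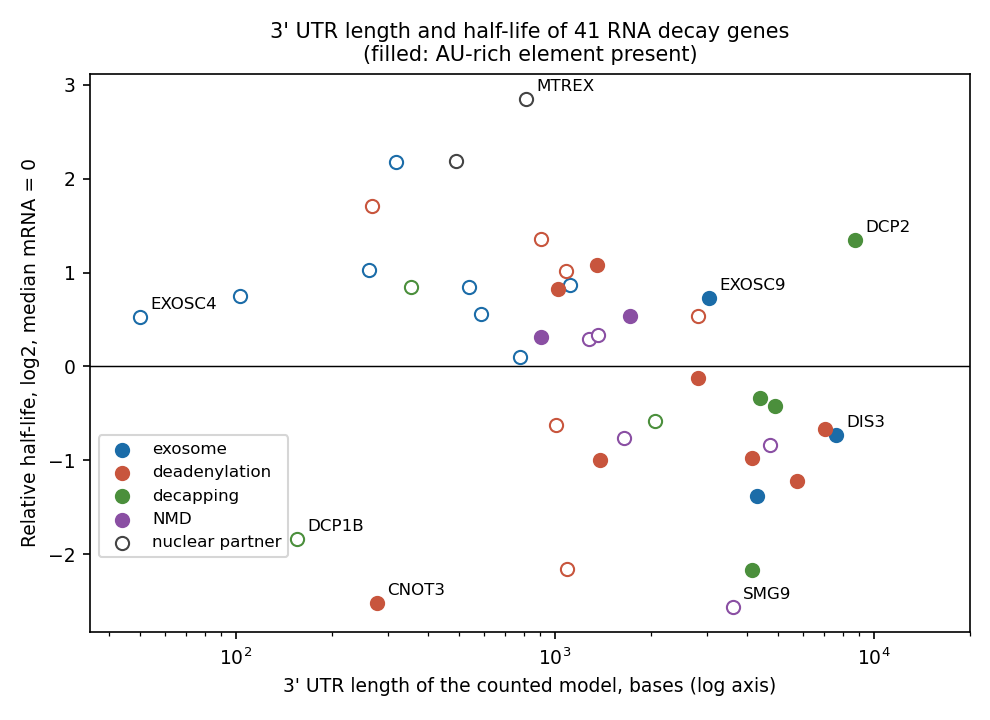
3′ UTR length of the counted model in bases (x axis, log scale) and relative half-life (y axis, log2, median mRNA = 0) of 41 RNA decay genes; filled points hold at least 1 AU-rich element. Genes with short 3′ UTRs lie mostly above 0, and DCP2, CNOT3 and DCP1B lie away from that trend.

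The 3′ UTRs were searched on the mRNA strand for TATTTAT, the core of the AU-rich element bound by decay-promoting proteins. It was present in 11 of the 18 genes called shorter (61.1%) and in 6 of the 22 called longer (27.3%), against 33.4% of mRNAs. Per length the order was the other way, with 0.360 sites per kb in the genes called shorter, 0.447 in those called longer and 0.313 in all mRNAs. The Pumilio motif TGTANATA was in 7 of 18 (38.9%) and 6 of 22 (27.3%), at 0.147 and 0.378 sites per kb, against 28.3% and 0.233 over all mRNAs. By group, the AU-rich element was in 8 of 14 deadenylation genes, 4 of 7 decapping genes, 3 of 8 NMD genes and 3 of 11 exosome genes. The first complete site is given for the genes with the shortest and longest half-life among those of each group that hold one in a coding model and may be printed, with the element in capitals and coordinates on GRCh37, read from the GENCODE transcripts in DNA letters.
EXOSC6 (log2 half-life −1.38, chr16:70284076-70284105, minus strand): cattcatttgcTATTTATtctcttctggct
DIS3 (−0.73, chr13:73333718-73333747, minus strand): ttgaacagaatTATTTATgcagaataattc
CNOT3 (−2.52, chr19:54659382-54659411, plus strand): attttggaaaaTATTTATgaataaatagtt
CNOT8 (1.08, chr5:154256291-154256320, plus strand): cttgtaaatacTATTTATgtttttaatttt
DCP1A (−2.16, chr3:53320459-53320488, minus strand): gccatgatttcTATTTATtcttttatggca
DCP2 (1.35, chr5:112350679-112350708, plus strand): aggagaaattcTATTTATtaatgaaagtgt
UPF3A (0.32, chr13:115070902-115070931, plus strand): cctggtaggaaTATTTATcagagttcacac
UPF1 (0.54, chr19:18978732-18978761, plus strand): gcagggactctTATTTATtcccattgctct
These genes were picked at both ends of half-life among holders of the element, so its presence in each was fixed by the choice. CNOT3 and DCP1A, at the short end of their groups, were called shorter, and CNOT8 and DCP2 longer. Both printed exosome genes were called shorter, and both printed NMD genes longer. EXOSC6 and DCP2 each hold 6 such sites and stand on opposite sides of the median mRNA.

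Genes that assist each branch were counted in the same way, beside the 45.4% of all mRNAs called longer and the 44.9% called shorter. Of 12 cofactors of deadenylation listed, 10 had an estimate, and all 10 were called shorter than the median mRNA, with a median of −1.48. The lowest were TOB1 (−3.71, edgeR adjusted p = 2.11e-22) and TOB2 (−2.50, edgeR adjusted p = 2.95e-19), antiproliferative proteins that recruit CCR4-NOT, and TNRC6C (−2.24, edgeR adjusted p = 2.93e-18), which links it to microRNAs. The cofactors of decapping lay on the other side, with 10 of 14 called longer, 4 shorter and a median of 1.19. The highest of all cofactors were the LSM ring subunits LSM7 (2.93, edgeR adjusted p = 3.90e-26), LSM5 (2.92, edgeR adjusted p = 1.46e-24) and LSM6 (2.69, edgeR adjusted p = 4.94e-22), the last counted on a model annotated as an NMD target. Of 12 exosome cofactors with an estimate, 8 were called longer and 4 shorter (median 0.92). Several cofactors were not counted on full coding models. TENT4B, C1D and LSM1, called longer, have models without an annotated coding sequence. SKIC2, called longer, has a retained-intron model. MPHOSPH6, called longer, and TNKS1BP1, called shorter, have models annotated as NMD targets. The HBS1L model has 544 exon bases, and the TOB1 model a 3′ UTR of 3 bases. Of 10 NMD cofactors 4 were called longer, 5 shorter and 1 neither (median −0.02), close to the shares over all mRNAs. The decapping group and its cofactors therefore differed in the sign of their medians, −0.42 and 1.19. The cofactor median rests on the LSM ring, as LSM1 to LSM7 were all called longer, at 0.91 to 2.93. Outside the ring, PATL1, NUDT16, EIF4ENIF1 and DDX6 were called shorter, at −1.87, −1.52, −1.46 and −0.41. PNRC2, LSM14B and LSM14A were called longer, at 0.48, 0.57 and 1.55.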

How the data were processed

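PRO-seq (n = 2) and total RNA-seq (n = 4) of K562 cells were used. The authors deposited raw HTSeq counts per transcript of reads cut with Cutadapt and placed on GRCh38 with HISAT2, leaving out TU ends for PRO-seq. Versions and strand handling were not given in the sources used here. Records assigned to no TU made up between 66.5% and 68.6% of RNA-seq and 86.5% and 88.6% of PRO-seq records and were left out. Transcripts were joined by identifier to GENCODE models lifted to GRCh37 (37339 of 42371 matched), so lengths may differ from those the authors counted on. TPM used exon length for RNA-seq and TU span minus 1000 bp for PRO-seq, and TUs of 1000 bp or less were left out.

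Each TU was tested in edgeR (version 4.0.16) by its quasi-likelihood test with TMM factors, length offsets and centering on the median mRNA, after testing on simulated data. Values of edgeR differed from the TPM ratios by at most 0.005. Members and lists were chosen with earlier results of these data known. Named in full were the 2 highest and 2 lowest half-lives of each group, the paralogs, genes without an estimate, and the 3 highest and 3 lowest cofactors; others are given by value or count, and genes singled out for going against a trend were chosen after their values were seen. The alternatives are other normalization, DESeq2 (version 1.42.0), thresholds, lengths, pooling and leaving out each library. Lengths without shared bases and leaving out EXOSC7 and EDC4, or DIS3L2, were chosen after seeing the data.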

Additional observations from a re-analysis of the deposited data

Results flagged for a closer look

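Across the 44 genes with RNA-seq counts, 2 had 1 RNA-seq library far from the other 3. CNOT9 was at 45.5 TPM in replicate 2 and between 50.01 and 50.4 TPM in the others. EXOSC6 was at 43.5 TPM in replicate 1 and between 47.8 and 48.4 TPM in the others. Chance alone flags about 1 in 20 genes, which is about what was seen, and neither call changed without that library.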

How the results depend on the processing

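Counts above and below the median mRNA were 7 and 7 of the 42 genes when a 2-fold difference was tested (2138 and 2898 of all TUs), and 27 and 10 with at least 1 summed count (6634 and 7597 TUs). With 1 summed count the medians were 1.37 (exosome), 0.26 (deadenylation), 0.21 (decapping) and 0.92 (NMD), and CNOT1 (0.040), EDC3 (0.080), XRN1 (0.24), DCPS (0.33) and PAN3 (0.53) changed sign, as the median mRNA moved by −0.63, while DIS3, CNOT6L and SMG6 lost their calls. With 10 summed counts the medians were 0.85, −0.26, −0.31 and 0.40, and the median mRNA moved by −0.11. DCPS (−0.21, edgeR adjusted p = 0.0653) and PAN3 (−0.009, edgeR adjusted p = 0.890) then lost their calls, and DIS3L2 was called longer. The decapping median was −0.46 at 20 and 2 TPM, −0.47 with 500 bp removed for PRO-seq, −0.38 without shared bases and −0.50 without EDC4.

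The SDs of PRO-seq, RNA-seq and half-life moved as follows. At 20 and 2 TPM they were 1.07 and 1.06 (exosome PRO-seq and RNA-seq), and 0.28, 1.37 and 1.37 (decapping PRO-seq, RNA-seq and half-life, 5 genes). With 500 bp removed the exosome PRO-seq SD was 1.15. With a pseudocount of 1 TPM the RNA-seq SDs were 1.32, 1.33, 1.64 and 1.20 in the order exosome, deadenylation, decapping and NMD, and the half-life SDs of deadenylation and decapping 1.27 and 1.18. Without shared bases the exosome SDs were 1.19, 1.51 and 1.14, and the decapping RNA-seq and half-life SDs 1.85 and 1.33. Without EXOSC7 and EDC4 they were 1.40 (exosome RNA-seq), 0.93 (exosome half-life) and 1.00 (decapping PRO-seq), and without DIS3L2 1.07 and 1.06 (exosome PRO-seq and RNA-seq).

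With each library left out, 23 genes were called longer and between 16 and 18 shorter, and all paralog differences kept their sign. RLE factors, mRNAs alone, and 500 bp removed left all 42 calls on the same side of the threshold, and DESeq2 and the close RNA-seq pairs summed lost PAN3 alone. Same-numbered RNA-seq and PRO-seq libraries share only a number (correlation of deviations −0.016 over 9874 TUs). With the number as a replicate block 23 genes were called longer and 17 shorter. The cause of the other changes was not tested.

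No second culture was measured, so variation between cultures is not covered. Lengths come from GRCh37 models, and PRO-seq density also depends on elongation rate, which was not measured here. DCP1B has the fewest RNA-seq counts in the list.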
